A study of Mus musculus with 13 samples.

Results

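Blood clotting and clot removal at the vessel wall were followed through 9 genes of the mouse aorta: F3, Tfpi, Thbd, Procr, Pros1, Plat, Plau, Anxa2 and Thbs1. The members were taken by gene symbol as every probe set that the platform annotation assigns to them, which gave 10 probe sets. The array held probe sets of their own for 8251 genes, among them 8 members. Thbs1 was covered only by probe set 160469_at, which the annotation assigns to both Pald1 and Thbs1, so its values are given under the probe set and cannot be credited to either gene. Thbd had 2 probe sets and each of the other 7 members had 1.

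All samples were aortae of c57/Bl6 mice that had spent 2 weeks in a light cycle (12 h light, 12 h dark) followed by 36 h of constant darkness; no other treatment and no mutation is named in the labels. Aortae were collected every 4 h over 48 h, with 6 aortae pooled at each of 12 times from circadian time (CT) 18 to CT62. CT42 to CT62 form the second day and CT18 to CT38 the first, which gave 2 pools at each of 6 circadian times. The 13 one-colour arrays include a duplicate at CT18, which was averaged as 1 pool, and their number limits the precision of every value.

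Clotting at a damaged vessel starts when tissue factor meets circulating factor VII, and it ends in thrombin, the protease that turns fibrinogen into fibrin. The healthy vessel wall holds this back with tissue factor pathway inhibitor and with the protein C system, in which thrombin bound to thrombomodulin activates protein C. Fibrin is removed by plasmin, which tissue-type and urokinase-type plasminogen activators release from plasminogen.

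Values are deposited intensities on a linear scale. Values under a floor of 36.7, the 20th percentile of all positive intensities, were set to the floor and are bounds. A 24-h cosine was fitted to log2 values with limma. Its amplitude is the log2 distance from the mean to the peak, given ± SE over 12 pools. With 1 pool at each time, a p-value here reflects how far the pools scatter about the fitted curve. In whole tissue, fewer cells of a type and less RNA per cell cannot be told apart.

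None of the 9 member probe sets that passed the intensity filter had a rhythm, a difference between days, a 12-h component or a rhythm that differed between days at an adjusted p under 0.05. The share of all 7453 probe sets called was 0.349% for the 24-h rhythm, 0% for the second day against the first, 0% for the 12-h component and 0% for the difference in rhythm between days (limma, Benjamini-Hochberg adjustment). Before adjustment, 2 members (F3 and Anxa2) had a p under 0.05 in the 24-h test, where 9.96% of all probe sets did. The count was 0 for the days, against 7.54% of all probe sets, and 0 for the 12-h component, against 5.84%. It was 2 (Plat and 160469_at) for the difference in rhythm between days, against 6.98%. The lowest adjusted p of a member was 0.402 for the 24-h rhythm, 0.717 for the days, 0.903 for the 12-h component and 0.678 for the difference in rhythm, by limma.

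Beside the other probe sets the members had a similar median in 4 of 5 measures of spread over time. Their median fitted 24-h amplitude was 0.19 (log2; lowest 0.09, highest 0.25), and that of all probe sets tested was 0.18. Their median range over the 12 pools was 1.04 on the log2 scale, against 1.09 for all. The cosine accounted for a median 0.186 of their variance, against 0.187. The median size of their log2 difference between days was 0.12, against 0.14. Their median 12-h amplitude was lower, 0.08 (log2) against 0.16 for all probe sets tested.

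**Figure D1:**
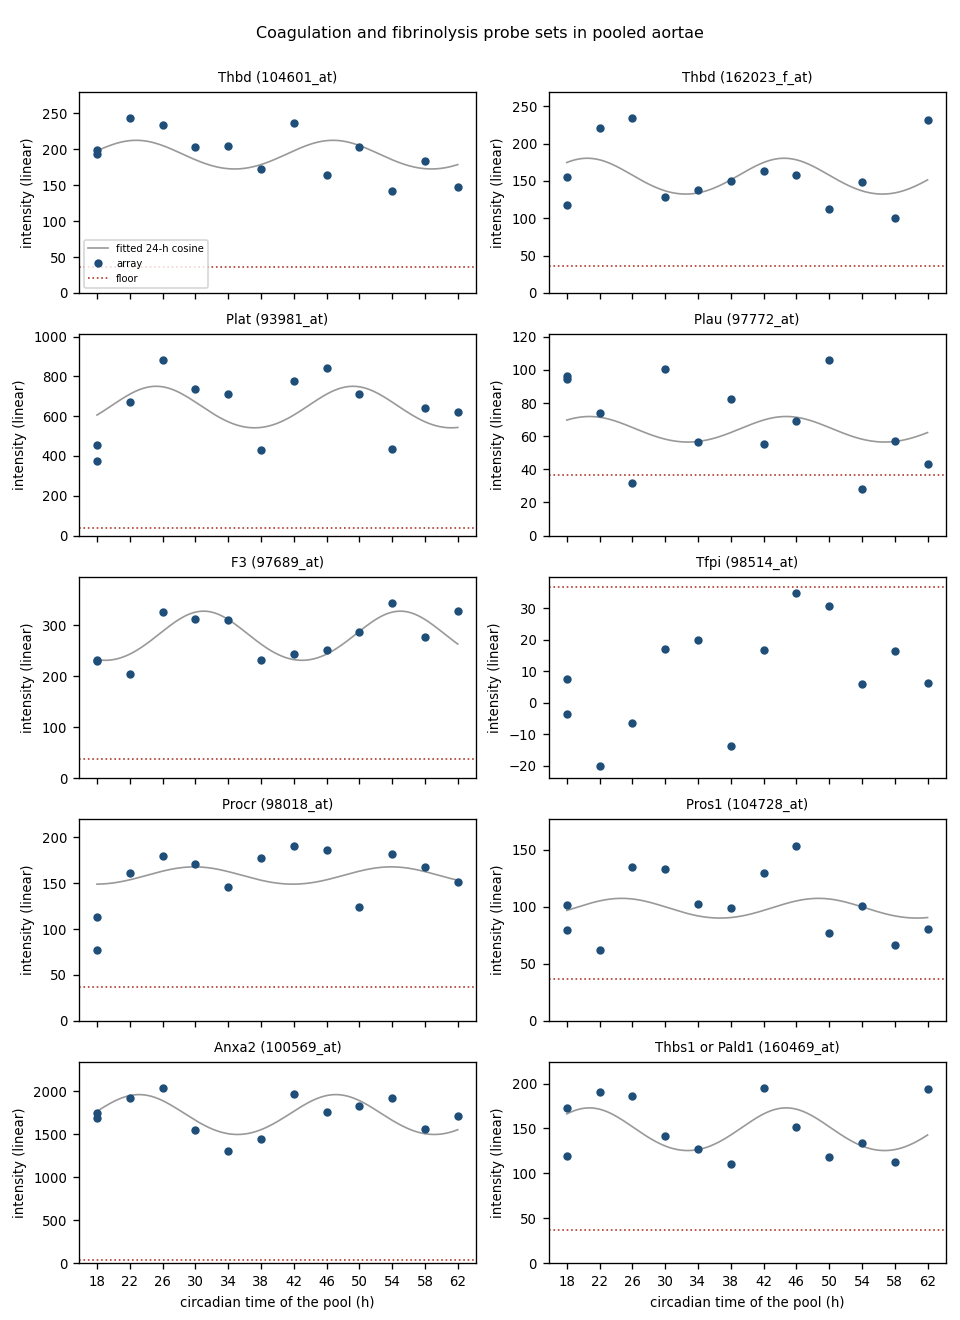
Linear intensity of the 10 member probe sets (vertical axes, 1 panel each) on the 13 arrays, by circadian time of the pool in hours. Points are arrays, grey lines the fitted 24-h cosine and dotted lines the floor of 36.7; Tfpi lies under the floor on all 13 arrays, and F3 stays between 205 and 344 over the pools.

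F3 encodes tissue factor, the membrane receptor that triggers clotting. F3 (97689_at) was measured at 205 to 344 over the pools, with a median of 282. At circadian times 2, 6 and 10 its intensity was 287, 344 and 277 on the second day and 326, 312 and 310 on the first. At circadian times 14, 18 and 22 it was 329, 243 and 251 on the second day and 232, 231 and 205 on the first. All 4 pools of circadian times 18 and 22 lay below all 6 pools of circadian times 2, 6 and 10. The pools at circadian time 14 differed most, with the second-day pool among the high ones and the first-day pool among the low ones.

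The fitted F3 curve had an amplitude of 0.25 ± 0.08 (log2), with an upper 95% bound of 0.43 and a peak at circadian time 7.0 h. From trough to peak this was a 1.42-fold difference. The cosine accounted for 0.581 of the variance, with an unadjusted p of 0.0302 and an adjusted p of 0.455 (limma), so F3 was not called. The unadjusted p was under 0.05 in 20 of 25 alternative settings, and the highest was 0.0836, without the CT54 pool. The second day differed from the first by 0.11 ± 0.12 (log2, SE; adjusted p = 0.827 by limma, 95% interval -0.14 to 0.36).

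F3 lies on chromosome 3 at 121723537 to 121735052 of GRCm38.p6, and Anxa2, which encodes a cell-surface receptor for plasminogen activation, on chromosome 9 at 69453683 to 69491792. Their promoters are shown because these members had the lowest 24-h p-values. The windows are RefSeq sequence of build GRCm38.p6, 250 bases before to 50 after the start of each gene, at chr3:121723287-121723586 and chr9:69453433-69453732, both on the plus strand.
F3: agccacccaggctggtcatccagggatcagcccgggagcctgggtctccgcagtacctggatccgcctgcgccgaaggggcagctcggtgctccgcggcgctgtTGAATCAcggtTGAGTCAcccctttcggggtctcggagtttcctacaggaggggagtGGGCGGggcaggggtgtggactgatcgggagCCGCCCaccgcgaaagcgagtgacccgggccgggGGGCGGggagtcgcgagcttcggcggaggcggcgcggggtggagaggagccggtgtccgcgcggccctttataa
Anxa2: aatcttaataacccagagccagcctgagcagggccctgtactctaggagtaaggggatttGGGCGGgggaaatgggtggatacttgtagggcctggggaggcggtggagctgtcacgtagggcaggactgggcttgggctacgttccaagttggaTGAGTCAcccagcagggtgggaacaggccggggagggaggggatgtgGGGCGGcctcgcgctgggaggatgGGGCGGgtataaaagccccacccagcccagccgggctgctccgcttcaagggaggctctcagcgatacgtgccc
Capitals mark matches, on either strand, to any of 6 sequences: the E-box CACGTG bound by the clock's activators, the ROR core AGGTCA, the D-box in the forms TTATGTAA and TTATGCAA, the GC box GGGCGG and the AP-1 site TGANTCA. No motif overlapped another in these windows.

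Each of these windows held 3 GC boxes, a sequence present in 35.7% of 32851 promoter windows of the same length. AP-1 sites stood at bases 105 to 111 and 116 to 122 of the F3 window and at bases 156 to 162 of the Anxa2 window, and 7.81% of all windows hold at least 1. The letters of the E-box (in 7.15% of all windows), the ROR core (16.3%) and the D-box (0.938% and 0.743% for its forms) are not in either window. The GC content was 70.3% for F3 and 63.7% for Anxa2, against a median of 52.7% over all windows. RefSeq windows were also given for Tfpi, Procr and Pros1. Tfpi had 2 windows, of which one held an E-box at bases 267 to 272 and the other a ROR core at bases 279 to 284, and each held a GC box. The Procr window held a ROR core at bases 33 to 38 and an AP-1 site at bases 97 to 103, and the Pros1 window held GC boxes. Thbd, Plat, Plau and Thbs1 had no entry.

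Tfpi, which encodes the inhibitor of the tissue factor and factor VIIa complex, was near background. Its probe set (98514_at) was under the floor on all 13 arrays, with intensities between -20.0 and 34.7, and 4 arrays were at or below 0. It did not pass the filter and gives no time course, and this says only that the probe set was not measurable here. A member was called near background where it failed the filter or lay at the floor in 6 or more pools, and only Tfpi met this.

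Some members that passed the filter were also dim. The 5th percentile of an array's intensities lay between 69.2 and 152 below 0, so that values of such a size also occurred with a negative sign. Plau exceeded that size on 1 of 13 arrays, Pros1 on 7, Procr on 11 and probe set 162023_f_at of Thbd on 11. The other Thbd probe set (104601_at), Plat, F3, Anxa2 and 160469_at exceeded it on all 13. At CT46 160469_at did so only narrowly, with 151.976 against 151.903. The median share of an array's values lying as far below 0 as 160469_at lay above it was 3.57%. For Procr this share was 2.94% and for 162023_f_at 3.28%, so 160469_at was also dim. These comparisons were added after the values were seen.

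The protein C system had 3 members, and none was called rhythmic. Thbd encodes thrombomodulin, the thrombin receptor of endothelial cells, and its 2 probe sets gave different profiles. On 104601_at the lowest pool was 142 at CT54, the median 199 and the highest 243 at CT22. On 162023_f_at the lowest pool was 99.9 at CT58, the median 150 and the highest 235 at CT26. Over the 12 pools the log2 values of the probe sets correlated with r = 0.11 (permutation p = 0.724) and rho = 0.16 (permutation p = 0.621). Without the 2 pools farthest from the median of 104601_at, r was 0.55. Pools far from the median of 162023_f_at were not left out in turn.

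At circadian times 2, 6 and 10, Thbd on 104601_at measured 204, 142 and 183 on the second day and 233, 203 and 204 on the first. At circadian times 14, 18 and 22 it measured 147, 237 and 164 on the second day and 173, 196 and 243 on the first. The second-day pool was thus the higher one at 1 of 6 circadian times, circadian time 18. Its amplitude was 0.15 ± 0.11 with a peak at 22.8 h (adjusted p = 0.798), and the second day minus the first was -0.23 ± 0.15 (log2, SE; 95% interval -0.55 to 0.09, adjusted p = 0.717 by limma). On 162023_f_at the second-day pool was higher at 3 of 6 circadian times, the amplitude was 0.22 ± 0.16 and the day difference -0.15 ± 0.22 (log2, SE). On neither probe set did the days or the rhythm pass the test.

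Procr encodes the endothelial protein C receptor, which presents protein C to thrombomodulin. Its probe set (98018_at) measured 93.0 at CT18, its lowest pool, with a median of 169 and a highest pool of 191 at CT42. The other 11 pools lay between 124 and 191. The duplicate CT18 arrays differed by -0.55 on the log2 scale (array 2 minus array 1). In size this was above the median of 0.19 over all probe sets kept and below the 90th percentile of 0.80. The lowest pool is thus also one where the arrays disagreed, within the range common among probe sets. The amplitude was 0.09 ± 0.13 (log2; adjusted p = 0.943 by limma), with an upper 95% bound of 0.37.

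Pros1 encodes protein S, the plasma cofactor of activated protein C. Its probe set (104728_at) measured 61.8 at CT22, its lowest pool, with a median of 99.8 and a highest pool of 153 at CT46. The extremes thus fell at circadian time 22 on different days, with 153 on the second day and 61.8 on the first. The amplitude was 0.13 ± 0.18 (adjusted p = 0.935), and the second day minus the first was -0.05 ± 0.26 (log2, SE; adjusted p = 0.972 by limma). The pools 24 h apart scattered by an SD of 0.53 on the log2 scale, and the means of the 6 circadian times by an SD of 0.18. The pools lowest and highest in Pros1 were also those lowest and highest in Alb, a hepatocyte marker, which was at the floor at CT22 and measured 163 at CT46. Both signals were dim there. The 5th percentile of the array lay 104 below 0 at CT22 and 152 below 0 at CT46, the farthest of any array. Over the pools Pros1 correlated with Alb with r = 0.69 (permutation p = 0.0132, adjusted p = 0.285) and rho = 0.79 (permutation p = 0.00315, adjusted p = 0.118), and r was 0.43 without the 2 farthest pools; the part of hepatocyte RNA was not tested.

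Plat encodes tissue-type plasminogen activator, which vessel walls release to dissolve fibrin. Its probe set (93981_at) ranged from 414 at CT18 to 880 at CT26, with a median of 691. At circadian times 2, 6 and 10 it measured 713, 436 and 641 on the second day and 880, 734 and 709 on the first. At circadian times 14, 18 and 22 it measured 622, 779 and 844 on the second day and 430, 414 and 672 on the first. Plat was higher on the second day at circadian times 14, 18 and 22 and lower at 2, 6 and 10, and its lowest pools fell at CT18, CT38 and CT54.

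This crossing gave the lowest unadjusted p among the members in the test of a rhythm that differs between days, 0.00367, with an adjusted p of 0.678 (limma). The unadjusted p of Plat was under 0.05 in all 22 alternatives run, the highest being 0.0196 without the CT18 pool. No marker or array noise covariate was among the settings run for this test of the difference in rhythm. For 160469_at the unadjusted p of that test was 0.0362 and the adjusted p 0.689, and it was under 0.05 in 13 of 22 alternatives. The common 24-h fit of Plat had an amplitude of 0.24 ± 0.13 (log2; upper 95% bound 0.52, adjusted p = 0.706), and the second day minus the first was 0.10 ± 0.20 (log2, SE).

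**Figure D2:**
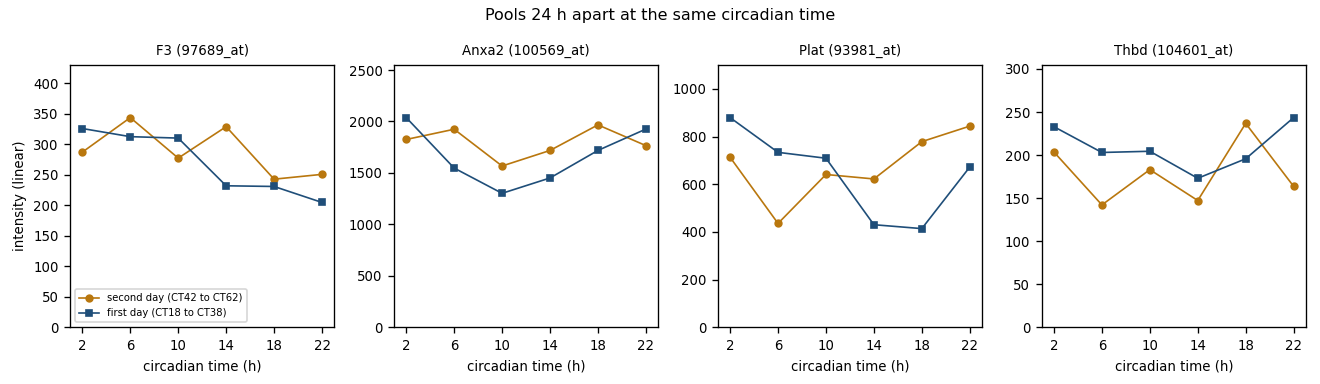
Linear intensity (vertical axes) at each circadian time in hours, with the second day (CT42 to CT62, circles) and the first day (CT18 to CT38, squares) drawn separately; each point is 1 pool. The days of F3 run together except at circadian time 14, whereas those of Plat cross, with 779 on the second day and 414 on the first at circadian time 18.

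Thymocyte markers were set beside Plat. The markers of thymocytes, the immature T cells of the thymus, were on the array for 6 of 7 genes, of which 4 passed the filter (Cd8b1, Dntt, Ptcra and Rag1). Their summed intensity ran between 233 and 3392 on the second day and between 360 and 3297 on the first. It was 2764 at CT18, 3297 at CT38 and 3392 at CT54, the 3 pools with the lowest Plat. It was also high at CT62 (2440) and CT30 (2215), where Plat measured 622 and 734. By the mean log2 level of these markers the highest pools were CT54 and CT38, followed by CT62 (0.94 above the mean of the pools), CT18 (0.77) and CT30 (0.72). Over the 12 pools Plat correlated with the mean log2 level of these markers with r = -0.67 (permutation p = 0.0193, adjusted p = 0.348) and rho = -0.72 (permutation p = 0.0112, adjusted p = 0.232), and r was -0.64 without the 2 farthest pools.

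Thbd on 104601_at had r = -0.71 with the thymocyte markers (permutation p = 0.00922, adjusted p = 0.285) and rho = -0.79 (permutation p = 0.00328, adjusted p = 0.118), and -0.58 without the 2 farthest pools. Plat had r = 0.70 with 7 smooth muscle markers (permutation p = 0.00829, adjusted p = 0.285) and rho = 0.80 (permutation p = 0.00284, adjusted p = 0.118), and 0.58 without the farthest pools. These come from 108 relations between member probe sets and marker lists, of which 9 had an unadjusted p under 0.05 for r and 0 passed after adjustment. With covariates for the markers of skeletal muscle, thymocytes and cardiac atrium the amplitude of the common 24-h fit of Plat was 0.07 ± 0.28. Their part in the Plat time course was not tested further.

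Plau encodes urokinase-type plasminogen activator. Its probe set (97772_at) was under the floor in 2 pools, at 31.7 at CT26 and 27.9 at CT54, with a median of 63.3 and a highest pool of 106 at CT50. The intensity of the CT50 pool was therefore at least 2.88-fold above those at CT26 and CT54. At CT50 the 5th percentile of the array lay 94.5 below 0, so this fold is between dim values. Pools 24 h apart scattered by an SD of 0.70 on the log2 scale, and the means of the circadian times by an SD of only 0.15. The amplitude was 0.17 ± 0.22 (log2; adjusted p = 0.924 by limma), and the second day minus the first was -0.29 ± 0.32 (95% interval -0.98 to 0.40). With covariates for skeletal muscle, thymocyte and atrial markers the fitted amplitude was 0.84 ± 0.53 (unadjusted p = 0.240), so its size depended on that setting.

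Anxa2 encodes annexin A2, which with S100a10 binds plasminogen and tissue-type plasminogen activator at the endothelial surface. Its probe set (100569_at) had a lowest pool of 1302 at CT34, a median of 1742 and a highest pool of 2037.5 at CT26. At circadian times 2, 6 and 10 it measured 1825, 1924.5 and 1567 on the second day and 2037.5, 1547 and 1302 on the first. At circadian times 14, 18 and 22 it measured 1718, 1967 and 1765.5 on the second day and 1451, 1719 and 1926 on the first. On each day the pool at circadian time 10 was the lowest, and the second-day pool was the higher one at 4 of 6 circadian times.

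The Anxa2 curve had an amplitude of 0.19 ± 0.06 (log2), with an upper 95% bound of 0.33, a peak at circadian time 23.1 h and a 1.31-fold difference from trough to peak. Its unadjusted p was 0.0220 and its adjusted p 0.402 (limma). The second day minus the first was 0.12 ± 0.08 (log2, SE; 95% interval -0.05 to 0.30). The fitted peaks of F3 and Anxa2 stood at 7.0 h and 23.1 h, and the F3 and Anxa2 values correlated with r = -0.06 over the pools, and neither gene was called rhythmic.

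Endothelial markers were set beside Anxa2. They were on the array for 10 of 12 genes, 9 passed the filter, 0 lay at the floor in all pools, and their summed intensity was lowest at CT62 (1873) and highest at CT26 (3117). Anxa2 correlated with their mean log2 level with r = 0.70 (permutation p = 0.0112, adjusted p = 0.285) and rho = 0.71 (permutation p = 0.0123, adjusted p = 0.232), and r was 0.44 without the 2 farthest pools. With the endothelial markers as a covariate the Anxa2 amplitude was 0.11 ± 0.09 (unadjusted p = 0.376). For F3 it was 0.25 ± 0.09 with that covariate (unadjusted p = 0.0371).

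S100a10 (92539_at), the annexin A2 partner, was lowest at CT58 with 1004, had a median of 1135 and was highest at CT42 with 1327. Its log2 values correlated with those of Anxa2 with r = 0.66 (permutation p = 0.0205) and rho = 0.70 (permutation p = 0.0139), and r was 0.59 without the 2 farthest pools. Its own amplitude was 0.12 ± 0.06 with a peak at 22.4 h (adjusted p = 0.635 by limma).

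Probe set 160469_at, assigned to both Pald1 and Thbs1, measured 110 in its lowest pool at CT38, a median of 143 and 195 in its highest pool at CT42. Thbs1 encodes thrombospondin 1, an adhesive glycoprotein of platelets and vessel matrix. The duplicate CT18 arrays differed by 0.54 on the log2 scale (array 2 minus array 1). The amplitude was 0.23 ± 0.12 with a peak at 20.8 h (adjusted p = 0.686), and the second day minus the first was 0.00 ± 0.18 (log2, SE).

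**Figure D3:**
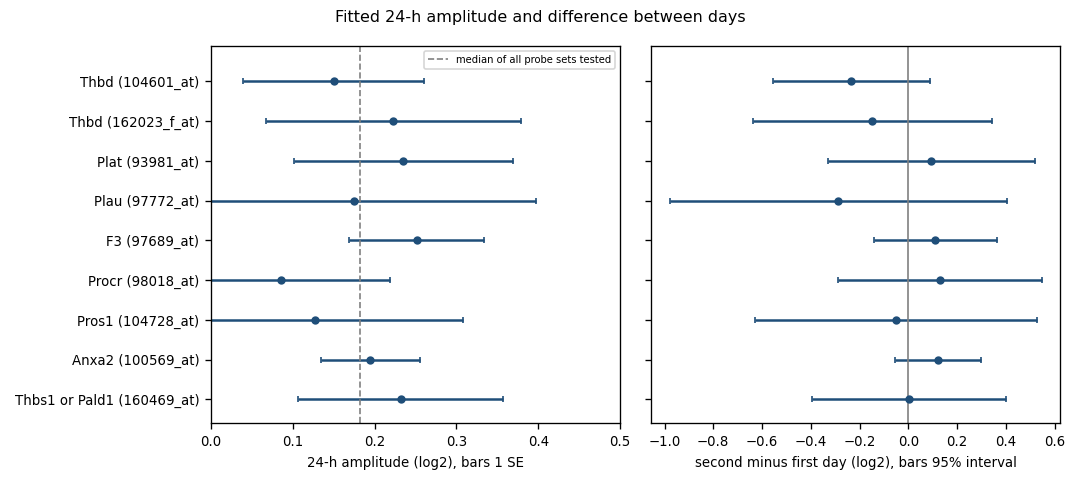
Fitted 24-h amplitude (left, log2, bars 1 SE, axis starting at 0) and second minus first day (right, log2, bars 95% interval) of the 9 member probe sets tested. The dashed line on the left is the median of all probe sets tested, 0.18. Every interval of the day difference includes 0, and the estimates run from -0.29 for Plau to 0.13 for Procr.

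Most members correlated weakly with each other. Over the 36 pairs of member probe sets the median r was 0.16, the lowest -0.53 and the highest 0.83. The highest was that of 162023_f_at (Thbd) with 160469_at, with a permutation p of 0.00086 (adjusted p = 0.0310), rho = 0.73 (permutation p = 0.00884, adjusted p = 0.318) and r = 0.75 without the 2 farthest pools. This was the only pair past the adjusted threshold for r, and 0 pairs passed for rho. Both of these probe sets were high at CT22, CT26 and CT62 and low at CT58. At CT42, the highest pool of 160469_at, 162023_f_at lay only 0.08 above its mean (log2). At CT38, the lowest pool of 160469_at, it lay only 0.04 below. The other Thbd probe set (104601_at) had r = 0.32 with 160469_at (permutation p = 0.304, adjusted p = 0.781) and rho = 0.31. Without the 2 farthest pools that r was 0.72.

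**Figure D4:**
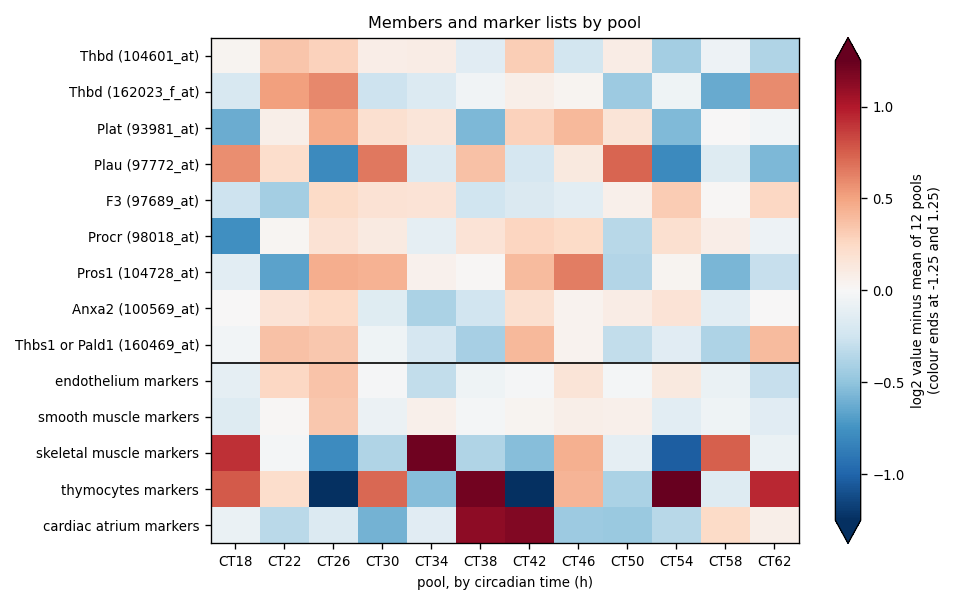
Log2 value minus the mean of the 12 pools for the 9 member probe sets tested (top), by circadian time of the pool in hours. Below are the mean centred log2 levels of the marker lists of endothelium, smooth muscle, skeletal muscle, thymocytes and cardiac atrium. The colour scale ends at the limits shown. Plat is low at CT18, CT38 and CT54, pools with high thymocyte markers, but not at CT30 and CT62, where these are also high. Tfpi, at the floor in every pool, is not drawn.

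Of the smooth muscle markers, which define the aortic wall, 7 of 8 passed the filter, with a summed intensity of 11671 to 18324. The CT26 pool had the highest sum for endothelium, smooth muscle, fibroblasts and mesothelium, and it was also the highest pool of Plat, Anxa2 and probe set 162023_f_at of Thbd. Skeletal muscle markers (8 of 8 passed) ran from 4563 at CT54 to 21647 at CT34, where Anxa2 was lowest. Of the platelet markers, Gp9 and Gp5 passed, Pf4 and Gp1bb were at the floor in all pools, and the sum ran from 77.0 at CT58 to 331 at CT46. F3 had r = -0.63 with them (permutation p = 0.0328, adjusted p = 0.505), rho = -0.61 (permutation p = 0.0402, adjusted p = 0.461) and r = -0.67 without the 2 farthest pools. For comparison, the 5th percentile of the array lay 69.9 below 0 at CT58 and 152 below 0 at CT46. The relation of the platelet markers to array noise was not tested. Of the hepatocyte markers 1 of 4 on the array (Alb) passed and 2 were at the floor throughout. The part of these cells in the members' values was not tested beyond the covariates given.

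Other genes of clotting and fibrinolysis were read from 5 lists of 56 genes, of which 47 had a probe set of their own and 26 passed the filter. None of the 26 was called for the 24-h rhythm, 0 had an unadjusted p under 0.05 there, against 9.96% of all probe sets, and the lowest adjusted p was 0.531 (limma). For the days 0 were called and 5 of 26 had an unadjusted p under 0.05, against 7.54% of all probe sets. These 5 were named after their values were seen. The second day minus the first was 0.18 ± 0.06 for Anxa5, 0.32 ± 0.13 for Anxa8, -0.65 ± 0.22 for F7, -0.54 ± 0.19 for Serpina10 and -0.38 ± 0.10 for Cd47 (log2, SE). The lowest adjusted p among them was 0.563, for Cd47.

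Most clotting factor genes did not pass the filter in the aorta. Of 16 on the array 4 passed, and 7 lay at the floor in all pools: F2, F5, F8, F9, F12, Fgb and Klkb1. F2 encodes prothrombin and Fgb a fibrinogen chain, proteins made chiefly in the liver. Vwf, which encodes the adhesive von Willebrand factor of endothelial cells, measured 178 at CT46, a median of 318 and 593 at CT26, and Kng1, which encodes kininogen, 381 at CT38, a median of 548 and 664 at CT50. Of 9 anticoagulant genes 4 passed, and Serpinc1, the gene of antithrombin, and Serpind1 lay at the floor throughout.

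In the fibrinolysis list 6 of 9 genes passed, and Plaur, the urokinase receptor that binds the Plau product, lay at the floor in all pools with Hrg and A2m. Plgrkt, a plasminogen receptor, measured 274 to 416 with an amplitude of 0.16 ± 0.08 (log2, SE). Among the anticoagulants, Gas6, a relative of protein S, measured 345 to 446 and Hspg2, the heparan sulfate proteoglycan perlecan, 93.4 to 465. The amplitude of Hspg2 was 0.46 ± 0.21 (log2; adjusted p = 0.631 by limma).

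The genes most like each member over the 12 pools were found among 5654 other genes by Pearson's r of log2 values. They share the pools, arrays and scaling with the member. Taking the highest of 5654 values over 12 pools gives a high r by selection alone. Whether the r values below exceed that was not tested, so they show no link between the genes. F3 was most like Alox15 (r = 0.86, rho = 0.84) and Ankrd28 (r = 0.86, rho = 0.90), and Anxa2 was most like Mtmr14 (r = 0.89, rho = 0.88) and Brk1 (r = 0.84, rho = 0.90). Plat was most like Tbxas1 (r = 0.85, rho = 0.65) and Utrn (r = 0.80, rho = 0.79). Thbd on 104601_at was most like Sac3d1 (r = 0.88) and Hdlbp (r = 0.87). Procr was most like Inpp5a (r = 0.84) and Rab9 (r = 0.81), and Pros1 most like Ncs1 (r = 0.91) and Yipf5 (r = 0.84).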

How the data were processed

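Whole-aorta RNA of 12 time-point pools was measured on 13 one-colour oligonucleotide arrays. The intensities are the authors' deposited values, 1 per probe set and array (software not given in the sources used here). Their trimmed mean was 200.2 on every array, so the deposited scaling was kept. Between 21.3% and 24.2% of an array's intensities were at or below 0.

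After leaving out 66 controls, 12422 of 12488 probe sets remained. The annotation paired 10833 of these with 1 gene and 396 with several, and did not list 1193; 10817 were found in RefSeq GRCm38.p6, which changed 0 symbols. Gene positions are RefSeq's, since the sources used here name no build for the array. Intensities were floored at 36.7 and log2-transformed, the CT18 arrays (r = 0.944; whether they share a pool is not stated) were averaged, and 7453 probe sets (5655 genes) with a mean log2 of at least 5.60, the 40th percentile, were tested. Where several probe sets named a gene, the brightest stood for it.

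In R 4.3.3, limma 3.58.1 (eBayes with trend) fitted the 24-h cosine (9 residual degrees of freedom), the day term (8), a 12-h component and a day by rhythm interaction (6 each), adjusted by Benjamini-Hochberg over all 7453 at 0.05. Correlations used 100000 two-sided permutations of the pools (scipy 1.17.1, Python 3.11.15; figures with matplotlib 3.10.9). On simulated data the procedure called 34% of 24-h rhythms of amplitude 0.5 (log2) and 70% of those of amplitude 1. It called 27% of day differences of 0.5 (log2) and 71% of those of 1. Rhythms as small as those fitted to the members were not simulated.

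All member probe sets were named; from the wider lists, the genes past a threshold and the 2 with the smallest 24-h p per list; and, for members never at the floor, the 2 most correlated genes. Members and lists were chosen with earlier results of these data known. Alternatives changed the floor, filter, normalization, scale and variance model, and left out each pool or CT18 array. Covariates (tissue, endothelial, array noise) were added only in the tests of the 24-h rhythm and the days. A day test paired by circadian time was added after seeing the data.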

Additional observations from a re-analysis of the deposited data

How the results depend on the processing

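In all alternatives run (25 for the 24-h rhythm, 26 for the days, 22 for the 12-h component and the difference in rhythm), the count of member probe sets past the adjusted threshold stayed at 0. Over all probe sets the 24-h count, 26 as reported, ran from 4 to 40. The unadjusted p of Anxa2 for the 24-h rhythm was under 0.05 in 20 of 25 alternatives; it was 0.376 with endothelial markers as a covariate, 0.168 with median centring and 0.0849 without the CT34 pool. With tissue marker covariates the 24-h amplitude was 0.84 ± 0.53 for Plau, 0.75 ± 0.25 for 160469_at (unadjusted p = 0.0178), 0.80 ± 0.34 for 162023_f_at and 0.37 ± 0.16 for F3, whose peak moved to 11.9 h. The day difference changed sign for 4 member probe sets whose estimates lay within their SE of 0. For Pros1 the adjusted p was 0.992 with quantile normalization, and for 160469_at it was 0.930 with tissue marker covariates and 0.997 with the array noise covariate. Leaving out 1 pool or CT18 array at a time, the adjusted p ran from 0.768 to 0.990 for Plat, 0.738 to 0.982 for Procr, 0.819 to 0.995 for Pros1 and 0.889 to 0.998 for 160469_at; the cause was not tested. Pairing the days by circadian time (6 pairs, chosen after seeing the data) left 0 member probe sets past the threshold and 0 with an unadjusted p under 0.05 (limma); the lowest adjusted p was 0.694, for Thbd on 104601_at. The precision is limited by 1 pool per time, and for Tfpi, Plau and Pros1 by signals close to the spread of the arrays' values around 0. On some arrays this also held for Procr and 162023_f_at, and 160469_at exceeded that spread only narrowly at CT46.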

Other observations

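Receptors through which thrombin and thrombospondin act on cells were measured beside the members. F2r, the main thrombin receptor, ran from 307 at CT58 to 526 at CT42, with a median of 376, an amplitude of 0.16 ± 0.09 (log2, SE, 12 pools) and a peak at 20.4 h. F2rl3, a further thrombin receptor, was at the floor in 5 of 12 pools and highest at CT46 with 122. Its fitted amplitude of 0.63 ± 0.24 includes those floor values (adjusted p = 0.531 by limma).

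All 6 annexins of the list that were on the array passed the filter. Anxa1, which encodes an annexin known for limiting inflammation, ran from 737 at CT46 to 1864 at CT62, with a median of 1038 and an amplitude of 0.27 ± 0.13 peaking at 13.8 h (adjusted p = 0.649 by limma). Anxa8 ran from 76.8 at CT34 to 150 at CT42, with an amplitude of 0.27 ± 0.11 (adjusted p = 0.589 by limma). Neither was called.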
